A study of Homo sapiens with 16 samples.

Results

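The genes described here are 42 genes for proteins of the extracellular matrix other than collagens, for enzymes and growth factors that act on the matrix, and for proteins commonly used to describe mesenchymal cells. They were taken by name from a list of matrix glycoproteins, proteoglycans, crosslinking enzymes, TGF-beta ligands and mesenchymal genes. The rule applies no threshold to measured values, but the list was drawn up with earlier results of these data known, so counts over it are descriptions. Where several rows named a gene, the one with the highest mean was used, with 16 arrays in all. All 42 were among the 18417 genes with a row of their own, and all 42 passed the filter on low values, a row above its array's median on at least 2 arrays, which left 12978 genes.

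The study compared STAG2-deficient with STAG2-proficient cells of 3 established human cancer lines by hybridising total RNA to Affymetrix Human Gene 1.0 ST arrays, with 1 array per culture and no treatment. STAG2 encodes a cohesin subunit; cohesin encircles DNA, pairs sister chromatids and shapes chromatin loops. H4 and 42MGBA are labelled glioblastoma lines and are STAG2-mutant. HCT116 comes from a colorectal carcinoma and carries an intact STAG2. Deficient H4 cells were the parental cells and clones 10 and 12, both non-recombinant, set against corrected H4 cells, the knock-in clones 8-1, 8-3 and 88-1 after Cre recombination. Deficient 42MGBA cells were the parental line and the knock-in clones 53 and 92 before Cre, set against the post-Cre clones 53-1, 53-7 and 92-6, labelled corrected. Knockout HCT116 cells were clones 7 and 21, set against the non-recombinant wild-type clones 24 and 27. In H4 only the corrected cultures were knock-in clones after Cre, so STAG2 status cannot be told apart from knock-in and Cre. In 42MGBA the deficient clones 53 and 92 were already knock-in clones, so the deficient groups of the 2 lines were of unlike kind. Apart from the parental lines each culture was 1 clone. H4 clones 8-1 and 8-3 share a parent clone, as do 53-1 and 53-7, so p-values measure the spread between these cultures. With 3 arrays against 3 in H4 and in 42MGBA and 2 against 2 in HCT116, the number of arrays limits the precision.

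The extracellular matrix is a network of fibrils, adhesive glycoproteins and proteoglycans that cells secrete and then bind through surface receptors. Small leucine-rich proteoglycans such as decorin and lumican coat collagen fibrils and set their spacing, lysyl oxidases crosslink collagen and elastin, and fibrillin microfibrils hold latent TGF-beta, which in turn drives many matrix genes. ZEB, SNAI and TWIST transcription factors repress epithelial genes and accompany a mesenchymal state. Normal brain tissue holds little fibrillar matrix outside vessels and meninges, whereas many glioma lines in culture express it.

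Values are log2 expression values, and differences are deficient minus corrected or knockout minus wild-type, fitted by limma over all 16 arrays and adjusted over all 12978 genes. A gene was called at an adjusted p under 0.05. The STAG2 row read 6.57, 6.96 and 6.62 in the deficient H4 arrays, against 8.95, 8.91 and 8.87 in the corrected ones, a difference of -2.19 (adjusted p = 2.37e-05). In HCT116 it read 6.57 and 7.14 in the knockouts, against 9.28 and 9.30 in wild-type clones (-2.44, adjusted p = 0.000115). In 42MGBA it read 4.75, 5.34 and 5.60 in the arrays labelled deficient, against 5.65, 5.41 and 5.53 in those labelled corrected (-0.30, adjusted p = 1). The row therefore does not separate the 42MGBA groups, which are named below by their labels. Array medians lay between 6.23 and 6.30 in H4 and HCT116 and at 5.05 or lower in 42MGBA, so levels of 42MGBA are compared with other lines only as percentiles within an array. Along the first principal component of each line, clone 10 stood at 30.2 among the H4 arrays, the next being 12.5, and knockout clone 21 at 23.6 among the HCT116 arrays, the others lying between -9.14 and -6.61. None of the 13 neural and glial markers lay above the 75th percentile in H4 or 42MGBA. Under the 50th lay 11 of the 13 in H4 and 8 in 42MGBA, among them in both lines GFAP, OLIG2, S100B and SOX2. Between these percentiles lay SLC1A3 and NCAM1 in H4, and NES, SLC1A3, CSPG4, BCAN and NCAM1 in 42MGBA. In HCT116 9 of 15 epithelial markers lay above the 75th percentile, among them CDH1, EPCAM and KRT18, while the intestinal markers KRT20, VIL1, CEACAM5 and LGALS4 lay under the 50th. Of the same 15, 2 lay above the 75th percentile in H4, KRT8 and KRT18, and 1 in 42MGBA, KRT18.

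In H4, 5 of the 42 genes were called, which is 11.9%, against 3.31% of all genes tested. DCN, LUM, FBN2 and P3H2 were lower in deficient cells and LOX was higher, against 2.0% of all genes called lower and 1.30% called higher. DCN and P3H2 differed most, at 5.57-fold and 4.61-fold lower in deficient cells, and LOX was 2.97-fold higher. The groups did not overlap for 16 of the 42 genes, or 38.1%, with 5 higher and 11 lower in deficient cells, against 20.8% of all genes tested. Over all 12978 genes 1571 were higher and 1126 lower without overlap. An unadjusted limma p under 0.05 was found for 18 of the 42 and for 2123 of all 12978 genes. In RNA of whole cultures, fewer cells expressing a gene and less of its RNA per cell cannot be told apart. The signs of the differences were negative for 30 of the 42 genes, with a median of -0.07, against a median of 0.02 over all genes tested. After centring each array on its median, 25 of the 42 were negative. The fibroblast marker list moved in the same comparison, with PDGFRA, PDGFRB, FAP and COL1A1 called lower in deficient H4 cells among its 9 tested genes, and its part in these differences was not tested.

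**Figure D1:**
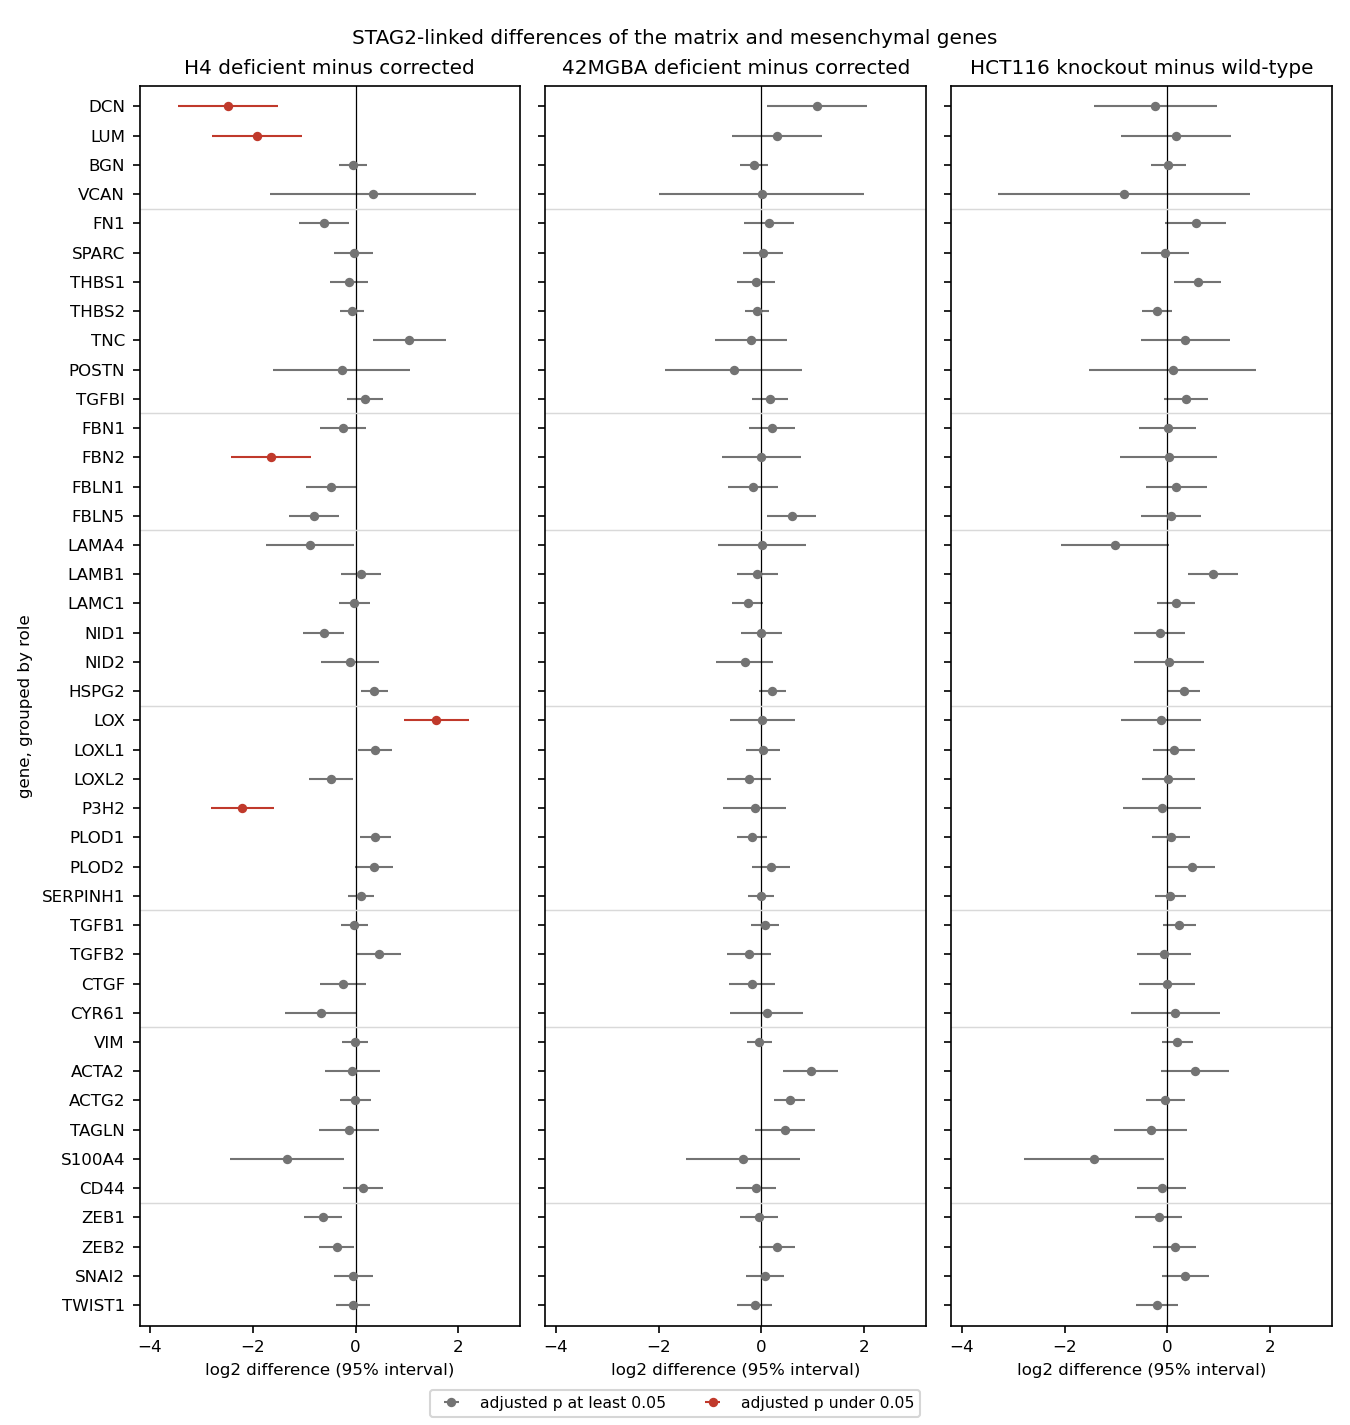
Log2 difference of each of the 42 genes, with its 95% interval, in H4 (deficient minus corrected), 42MGBA (deficient minus corrected) and HCT116 (knockout minus wild-type), grouped by role. Red marks the 5 genes called in H4, DCN at -2.48, LUM at -1.91, FBN2 at -1.65, P3H2 at -2.20 and LOX at 1.57, and no gene is called in the other lines.

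Among the 4 proteoglycans, 2 were called lower in H4 and none higher. DCN encodes decorin, a small leucine-rich proteoglycan that binds collagen fibrils and sequesters TGF-beta. It read 4.50, 4.37 and 3.95 in the deficient H4 arrays (parental, clones 10 and 12), against 6.81, 6.09 and 7.35 in the corrected arrays (8-1, 8-3 and 88-1). Every deficient array lay below every corrected array, by more than the spread within either group. The mean was 4.27 ± 0.28 in deficient and 6.75 ± 0.63 in corrected cells (SD, n = 3 each), a difference of -2.48 (95% interval -3.45 to -1.50, adjusted p = 0.00927). All 3 deficient arrays lay under their array's lower quartile of 4.49 to 4.52, a range in which background was not separated from signal, and the difference is therefore of uncertain size. Without any 1 array the DCN difference ran from -2.81 to -2.18 and passed in 6 of 6 fits.

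LUM encodes lumican, a related proteoglycan of collagen fibrils. It read 8.91, 6.51 and 8.21 in deficient H4 arrays, against 9.42, 9.81 and 10.14 in corrected ones. All deficient arrays were lower, clone 10 by far the most. Its mean was 7.88 ± 1.24 in deficient and 9.79 ± 0.36 in corrected cells (SD, n = 3 each), a difference of -1.91 (SE 0.41, adjusted p = 0.0227). The call was lost in 2 of the 6 fits without 1 array, those without clone 8-3 or 88-1, where the highest adjusted p was 0.081. It was also lost with clones 8-1 and 8-3 averaged as 1 sample (adjusted p = 0.0728) and with each line fitted alone (adjusted p = 0.173). Without clone 10 the difference was -1.23 and still passed.

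DCN and LUM are neighbours on chromosome 12 with 0 protein-coding genes between them, the one pair of neighbouring genes in the set. The further genes of this stretch had differences of either sign. KERA and EPYC, related proteoglycan genes, and CCER1 were too low to be tested. BTG1, an antiproliferative factor on the DCN side, differed by 0.21 (adjusted p = 0.4), and EEA1, an endosomal tethering protein farther out, was called lower at -0.78 (adjusted p = 0.034). ATP2B1, a calcium pump on the LUM side, differed by 0.07 (adjusted p = 0.885). The other proteoglycans were not called in H4. BGN, biglycan, differed by -0.05 with a 95% interval of -0.32 to 0.23. VCAN, the large hyaluronan-binding proteoglycan versican, differed by 0.34 with an interval of -1.66 to 2.34, too wide to exclude a sizeable difference either way.

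Of the 4 microfibril and elastic fibre genes, 1 was called lower in H4. FBN2 encodes fibrillin-2, a microfibril protein prominent in development. It read 6.41, 4.32 and 4.73 in deficient H4 arrays, against 6.65, 6.55 and 7.20 in corrected ones. The parental array lay just below the lowest corrected array, whereas clones 10 and 12 lay far below. The means were 5.16 ± 1.11 in deficient and 6.80 ± 0.35 in corrected cells (SD, n = 3 each), a difference of -1.65 (SE 0.36, adjusted p = 0.0248). It passed in 1 of the 6 fits without 1 array, the one without the parental line, with an adjusted p of up to 0.101 in the others. The FBN2 call was also lost with clones 8-1 and 8-3 averaged (adjusted p = 0.0773) and with each line fitted alone (adjusted p = 0.187), and FBN2 was not tested under the stricter filter. FBLN5, fibulin-5, an organiser of elastic fibres, read 8.12, 8.45 and 7.41 in deficient H4 arrays, against 8.57, 9.09 and 8.73 in corrected ones. Its groups did not overlap, and its difference of -0.81 missed the threshold (adjusted p = 0.0659). FBLN1, fibulin-1, also did not overlap, with 5.58 ± 0.03 in deficient and 6.05 ± 0.43 in corrected cells (SD, n = 3 each). FBN1, fibrillin-1, differed by -0.25 with an interval of -0.70 to 0.20.

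The 7 genes for collagen-modifying enzymes and their chaperone held both directions. P3H2, prolyl 3-hydroxylase 2, modifies prolines of collagen chains, in particular of basement membrane collagen. It read 7.63, 6.84 and 6.11 in deficient H4 arrays, against 9.02, 8.89 and 9.29 in corrected ones. The 3 corrected arrays lay close together and every deficient array lay more than 1 log2 unit below them. The means were 6.86 ± 0.76 in deficient and 9.07 ± 0.20 in corrected cells (SD, n = 3 each), a difference of -2.20 (SE 0.29, adjusted p = 0.00104). It passed in 6 of 6 fits without 1 array, with an adjusted p of 0.00552 at most, and narrowly missed with each line fitted alone (adjusted p = 0.0531).

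LOX encodes lysyl oxidase, which crosslinks collagen and elastin. It read 9.81, 10.73 and 10.18 in deficient H4 arrays, against 8.64, 8.59 and 8.78 in corrected ones. All deficient arrays were higher, and the corrected arrays spanned a narrow range. The means were 10.24 ± 0.47 in deficient and 8.67 ± 0.10 in corrected cells (SD, n = 3 each), a difference of 1.57 (SE 0.30, adjusted p = 0.0103). It passed in 6 of 6 fits without 1 array and in 9 of 9 other settings. Of its relatives, LOXL1 differed by 0.38 (adjusted p = 0.236) and LOXL2 by -0.48 (adjusted p = 0.232), both without overlap of the groups and in opposite directions. PLOD1 and PLOD2, lysyl hydroxylases that prepare collagen for crosslinking, differed by 0.38 (adjusted p = 0.169) and 0.36 (adjusted p = 0.323). SERPINH1, the collagen chaperone HSP47, differed by 0.10 with an interval of -0.15 to 0.35.

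**Figure D2:**
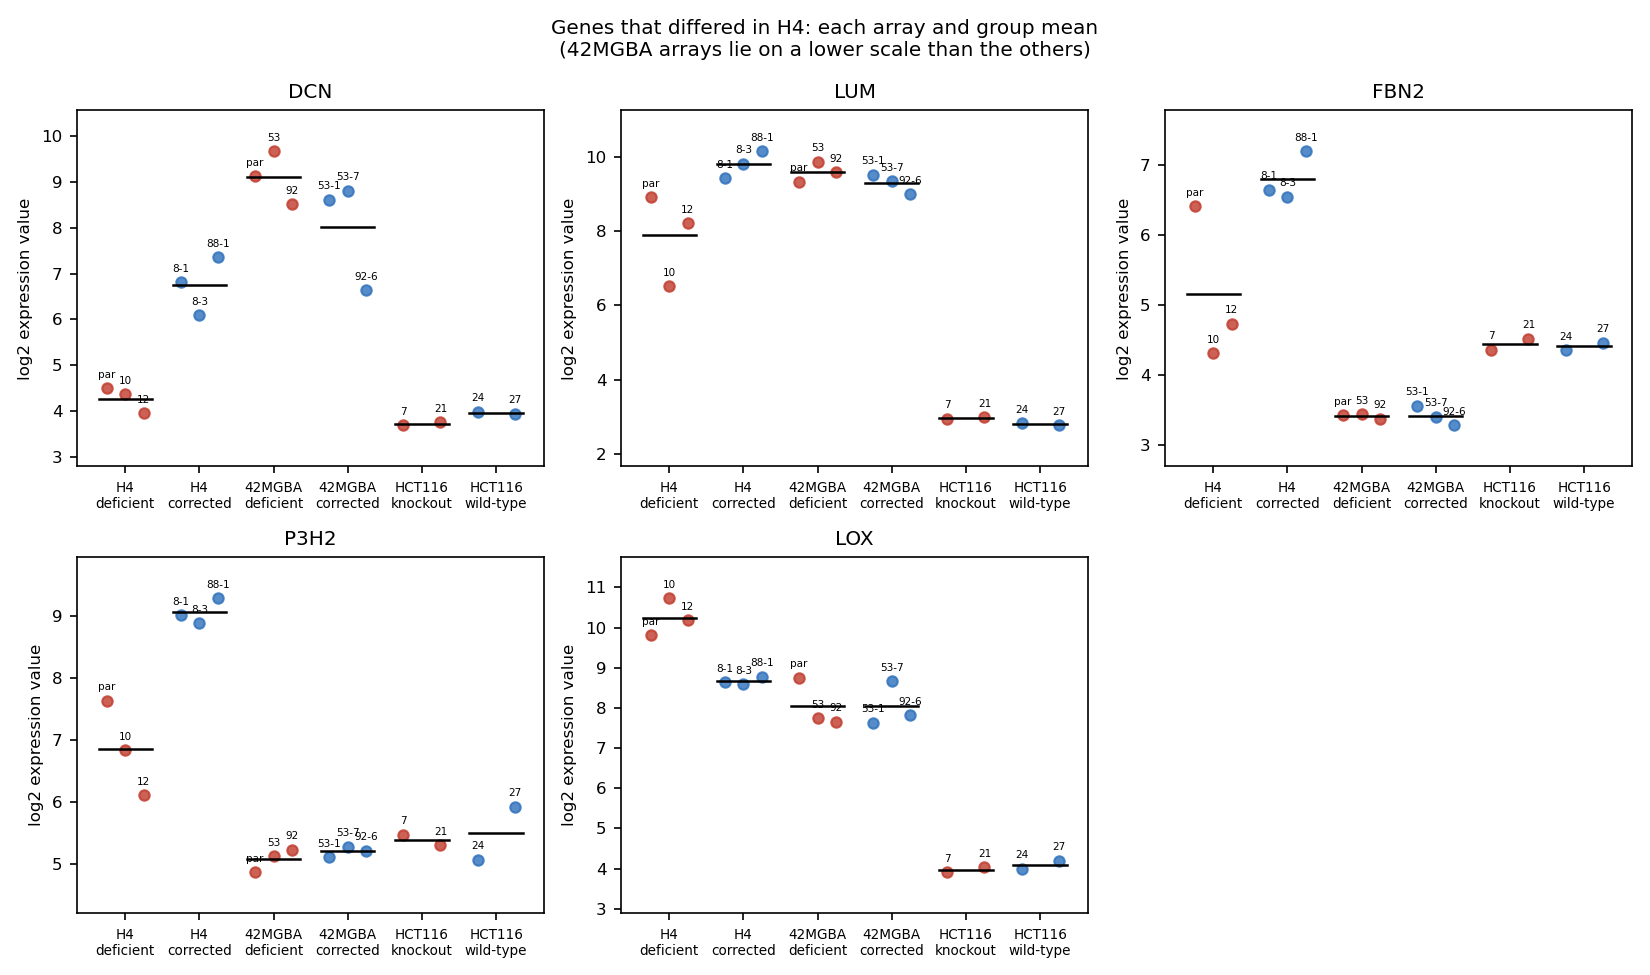
Log2 expression value of DCN, LUM, FBN2, P3H2 and LOX on each array (points, labelled by clone, par being the parental line) with group means (lines), deficient or knockout in red and corrected or wild-type in blue. In H4 the groups do not overlap for any of the 5 genes, and DCN averages 4.27 in deficient against 6.75 in corrected cells. The 42MGBA arrays are on a lower scale than the others.

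The bases before the start of 3 of the called genes are shown because these genes moved in H4 in opposite directions and so can be compared in base content and common promoter motifs. The 250 bases before each RefSeq start (GRCh38.p14) are given 5′ to 3′ on the gene's strand, and capitals mark a CCAAT box (CCAAT) or a GC box (GGGCGG), each searched on both strands, so that the reverse reads ATTGG or CCGCCC.
FBN2, chr5:128538246-128538495, minus strand: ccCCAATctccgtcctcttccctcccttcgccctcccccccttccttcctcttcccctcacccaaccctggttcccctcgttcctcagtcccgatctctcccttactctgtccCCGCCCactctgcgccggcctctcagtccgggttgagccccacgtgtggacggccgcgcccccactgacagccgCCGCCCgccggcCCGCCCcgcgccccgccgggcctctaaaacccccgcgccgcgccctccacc
P3H2 first start, chr3:190122279-190122528, minus strand: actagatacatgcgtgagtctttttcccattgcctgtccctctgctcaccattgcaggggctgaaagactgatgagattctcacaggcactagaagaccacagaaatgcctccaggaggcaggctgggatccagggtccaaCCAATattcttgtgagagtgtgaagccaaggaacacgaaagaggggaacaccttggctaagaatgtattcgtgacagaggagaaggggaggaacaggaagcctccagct
P3H2 second start, chr3:190120898-190121147, minus strand: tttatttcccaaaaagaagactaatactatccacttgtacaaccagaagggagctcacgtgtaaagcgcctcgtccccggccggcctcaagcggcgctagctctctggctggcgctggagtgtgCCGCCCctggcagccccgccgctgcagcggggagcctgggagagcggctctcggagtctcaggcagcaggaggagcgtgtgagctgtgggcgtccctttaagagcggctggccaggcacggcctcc
LOX first start, chr5:122078260-122078509, minus strand: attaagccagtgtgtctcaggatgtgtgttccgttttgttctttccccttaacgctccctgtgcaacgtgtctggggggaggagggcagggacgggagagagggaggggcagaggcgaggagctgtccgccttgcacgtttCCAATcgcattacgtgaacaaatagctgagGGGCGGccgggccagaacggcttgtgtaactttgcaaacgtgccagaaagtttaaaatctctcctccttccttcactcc
FBN2 has a GC content of 72.8% in this window, LOX 55.2% at its first start, and P3H2 51.2% and 64.0% at its 2 starts. In these windows FBN2 holds both motifs, and so does the first start of LOX, which moved the other way, while each P3H2 start holds 1 of them. The 2 further listed LOX starts, not shown, hold neither motif, at 61.2% and 66.4% GC. None of the 4 windows shown holds a TATA box (TATAAA), a TEAD motif (GGAATG), an AP-1 motif (TGANTCA) or a CArG box, the motif of serum response factor. A CArG box was counted only as an exact CCWWWWWWGG, W being A or T. Promoters were matched for 35 of the 42 genes, and the called genes DCN and LUM were not among them. A GC box was found in at least 1 promoter of 25 of the 35 and in 42.64% of all 35116 promoters, and a CCAAT box in 11 of the 35 and in 32.01%. A TATA box was found in 7 of the 35 (10.72% of all), a TEAD motif in 7 (11.89%) and an AP-1 motif in 1 (6.57%). The promoters of the set had a median GC content of 64.0%, against 58.0% over all promoters. Genes with several starts had more windows in which a motif could be found, and a match is a description of letters.

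None of the 7 matrix glycoproteins was called in H4. FN1, fibronectin, the main adhesive glycoprotein, read 11.61, 12.27 and 10.94 in deficient H4 arrays, against 12.32, 12.17 and 12.18 in corrected ones. The parental line and clone 12 were lower and clone 10 lay among the corrected arrays, so that the groups overlapped (-0.62, adjusted p = 0.169). TNC, tenascin-C, an anti-adhesive glycoprotein, read 9.26, 7.89 and 9.13 in deficient arrays, against 8.36, 7.03 and 7.75 in corrected ones. It averaged 1.04 higher in deficient cells with overlap of the groups (adjusted p = 0.106). Without clone 10 both passed, FN1 at -0.95 (adjusted p = 0.0123) and TNC at 1.48 (adjusted p = 0.0141), as did FBLN5 at -1.03 (adjusted p = 0.0256). SPARC, a collagen-binding matricellular protein, differed by -0.04 with an interval of -0.42 to 0.35, and THBS1, thrombospondin-1, by -0.12 with an interval of -0.49 to 0.25. TGFBI, a TGF-beta-induced adhesion protein, differed by 0.18 (interval -0.17 to 0.53), and THBS2 by -0.07 at a level under the median of every H4 array. POSTN, periostin, differed by -0.27 with a wide interval of -1.60 to 1.05.

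The 6 basement membrane genes held no call in H4. NID1, nidogen-1, which links laminin to type IV collagen, read 7.64, 7.14 and 7.27 in deficient arrays, against 8.08, 7.80 and 8.02 in corrected ones, without overlap (-0.62, adjusted p = 0.0918). Without the parental H4 line NID1 passed at -0.77 (adjusted p = 0.0415). HSPG2, the heparan sulphate proteoglycan perlecan, read 7.67, 7.91 and 7.42 in deficient arrays, against 7.27, 7.29 and 7.34 in corrected ones (0.37, adjusted p = 0.123). The laminin chains LAMB1 and LAMC1 differed by 0.11 and -0.02, and LAMA4 by -0.88 with overlapping groups (adjusted p = 0.29). NID2 differed by -0.11. HSPG2 was the one gene of the 42 whose groups did not overlap in the same direction in all 3 lines. It differed by 0.37 in H4, 0.21 in 42MGBA and 0.32 in HCT116, and it was called in none of them. How many of all genes did the same was not counted. In the single lines 20.8%, 8.91% and 40.7% of all genes tested did not overlap. These shares do not give the share for all 3 lines together, so whether HSPG2 stands apart was not tested.

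The TGF-beta ligands and the CCN proteins, matricellular targets of TGF-beta and YAP, held no call in H4. TGFB1 differed by -0.02 with an interval of -0.29 to 0.24. TGFB2 averaged 9.52 ± 0.09 in deficient and 9.07 ± 0.23 in corrected cells (SD, n = 3 each) without overlap (adjusted p = 0.272). CTGF (RefSeq CCN2) differed by -0.25 and CYR61 (RefSeq CCN1) by -0.67, both with overlap. CYR61 read 7.93, 6.77 and 6.38 in deficient arrays, against 8.30, 7.53 and 7.26 in corrected ones. The parental line lay among the corrected arrays and clones 10 and 12 below them, and without the parental line CYR61 passed at -1.13 (adjusted p = 0.0293).

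Of the cytoskeletal and surface genes none was called in H4. VIM, the intermediate filament vimentin, read 11.10, 11.06 and 10.92 in deficient arrays, against 11.14, 11.06 and 10.90 in corrected ones, a difference of -0.01 with an interval of -0.25 to 0.23. CD44, the hyaluronan receptor, differed by 0.15 (interval -0.24 to 0.54). S100A4, a calcium-binding protein of motile cells, read 6.40, 5.77 and 5.54 in deficient arrays, against 6.93, 6.91 and 7.86 in corrected ones, without overlap (-1.33, adjusted p = 0.2). The 4 transcription factors all had negative differences, from -0.63 to -0.05, and none was called. ZEB1 came nearest, at 7.59, 7.53 and 7.27 in deficient arrays, against 7.98, 8.18 and 8.13 in corrected ones (adjusted p = 0.0621). With the parental arrays of both lines left out ZEB1 passed at -0.70 (adjusted p = 0.0308). ZEB2 averaged 7.21 ± 0.07 in deficient and 7.58 ± 0.14 in corrected cells without overlap (SD, n = 3 each, adjusted p = 0.265). SNAI2 and TWIST1 differed by -0.05 each, with intervals of -0.42 to 0.33 for SNAI2 and -0.39 to 0.28 for TWIST1.

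In 42MGBA, limma called 0 of the 42 genes and 0% of all genes tested. An unadjusted p under 0.05 was found for 4 of the 42 and for 512 of all 12978 genes. The differences split into 21 positive and 21 negative, with a median of -0.00, against -0.03 over all genes. The groups did not overlap for 5 of the 42 genes, or 11.9%, against 8.91% of all genes tested: FBN1, FBLN5, HSPG2 and ACTA2 were higher and LAMC1 was lower in the arrays labelled deficient. Over all 12978 genes 334 were higher and 822 lower without overlap. The largest difference was in DCN, at 9.12, 9.66 and 8.51 in deficient arrays, against 8.61, 8.80 and 6.63 in corrected ones. Clone 92-6 was the lowest array, and the other corrected arrays lay within the range of the deficient ones. By parent clone, DCN was 9.66 in clone 53 against 8.61 in 53-1 and 8.80 in 53-7, and 8.51 in clone 92 against 6.63 in 92-6, so each corrected clone was below its own parent clone. The DCN difference of 1.08 (SE 0.46, adjusted p = 1) was the largest positive one of all 12978 genes in this line. It was 0.39 without clone 92-6 and 1.35 with the parent clone as a block (adjusted p = 0.505).

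Positive differences that did not pass were also measured in 42MGBA for 3 smooth muscle genes of the set. ACTA2, the smooth muscle actin of myofibroblasts, read 7.79, 7.70 and 8.02 in deficient arrays, against 7.67, 6.82 and 6.16 in corrected ones. Clone 53-1 lay just under the deficient arrays and clones 53-7 and 92-6 well below. ACTG2, the enteric smooth muscle actin, read 8.94, 8.69 and 9.05 in deficient arrays, against 8.72, 8.03 and 8.28 in corrected ones, with clone 53-1 again beside the deficient arrays. TAGLN, the actin-binding protein transgelin, read 7.52, 6.68 and 7.27 in deficient arrays, against 7.10, 6.29 and 6.71 in corrected ones, with clone 53 among the corrected arrays. The differences were 0.96 for ACTA2, 0.55 for ACTG2 and 0.46 for TAGLN, all with an adjusted p of 1. The wider lists did not share this sign, with medians of -0.01 for the fibroblast and smooth muscle markers and for the further mesenchymal and contractile genes, of which 9 were positive and 17 negative. Without clone 53-1, ACTA2 passed at 1.35 (adjusted p = 0.0117) and ACTG2 at 0.73 (adjusted p = 0.0434). Without clone 92-6 the ACTA2 difference was 0.59. With the parent clone as a block the differences were 1.06 for ACTA2 (adjusted p = 0.539) and 0.51 for ACTG2 (adjusted p = 0.622).

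**Figure D3:**
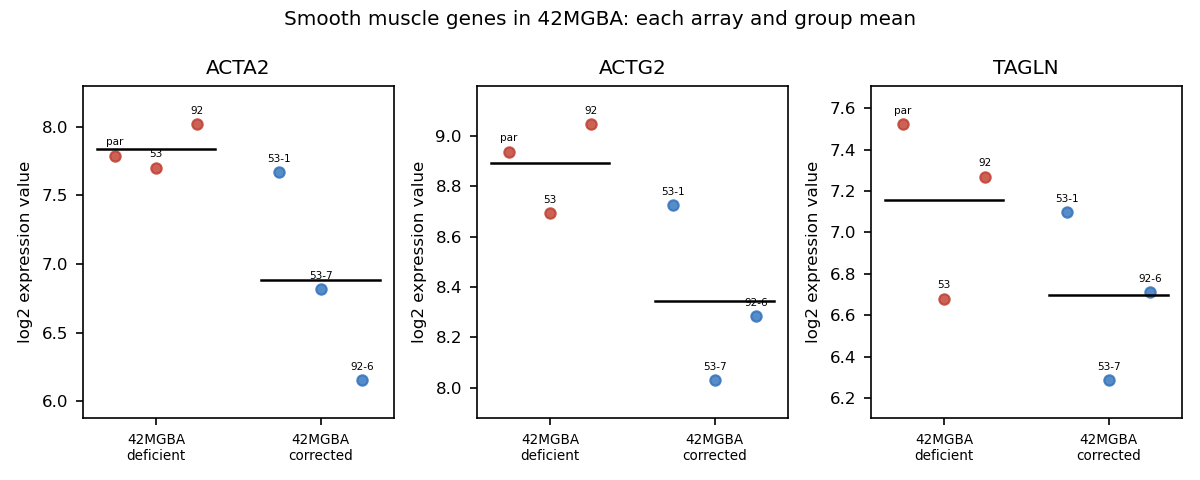
Log2 expression values of ACTA2, ACTG2 and TAGLN on the 42MGBA arrays (points, labelled by clone) with group means (lines), deficient in red and corrected in blue. ACTA2 lies between 7.70 and 8.02 on the deficient arrays, against 6.16 to 7.67 on the corrected ones, where clone 53-1 is the highest for all 3 genes.

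The promoters of the 2 smooth muscle actins are shown because these genes came nearest to a call in 42MGBA and smooth muscle promoters are a classical setting of the CArG box. Capitals mark a CArG box or a TATA box (TATAAA, reverse TTTATA) in ACTG2, and a TEAD motif (GGAATG) in ACTA2, in the 250 bases before each RefSeq start (GRCh38.p14).
ACTG2, chr2:73892758-73893007, plus strand: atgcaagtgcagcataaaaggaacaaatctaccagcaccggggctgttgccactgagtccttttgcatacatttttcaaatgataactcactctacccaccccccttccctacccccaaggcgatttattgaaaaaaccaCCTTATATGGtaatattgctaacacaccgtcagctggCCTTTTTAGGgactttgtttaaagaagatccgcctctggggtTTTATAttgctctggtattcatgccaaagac
ACTA2 second start, chr10:88952774-88953023, minus strand: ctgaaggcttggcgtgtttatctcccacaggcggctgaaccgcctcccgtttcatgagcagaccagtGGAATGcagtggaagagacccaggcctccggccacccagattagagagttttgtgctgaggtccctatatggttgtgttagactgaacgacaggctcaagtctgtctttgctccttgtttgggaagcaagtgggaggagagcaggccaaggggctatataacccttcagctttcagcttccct
The ACTG2 window holds a pair of CArG boxes and a TATA box 31 bases before the start. An exact CArG box (CCWWWWWWGG, W being A or T) was found in 2 of the 35 genes of the set with a promoter, ACTG2 and PLOD1. It was found in 1.16% of all promoters. Near matches were not counted. The ACTA2 window shown holds ccctatatgg and ccttgtttgg, which each depart from the pattern at a single base, so a CArG-like element there is not excluded. The same window holds tataac, which departs from TATAAA at a single base, so a TATA-like element there is not excluded either. The ACTA2 window before its second listed start holds a TEAD motif 183 bases before the start. The first listed ACTA2 start, not shown, holds 2 GC boxes and no TEAD motif or exact CArG box. The base content differed, at 44.0% GC for ACTG2, and 53.6% and 54.0% for the first and second ACTA2 starts.

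In HCT116, limma called 0 of the 42 genes between knockout and wild-type clones, against 0.131% of all genes tested. An unadjusted p under 0.05 was found for 4 of the 42 and for 1016 of all 12978 genes. With 2 arrays a group, 15 of the 42 genes, or 35.7%, did not overlap between groups, against 40.7% of all genes tested. Of these 15, 12 were higher and 3 lower in the knockouts. Over all 12978 genes 2404 were higher and 2873 lower without overlap. LAMB1, a laminin chain, had the smallest adjusted p of the set, at 8.60 and 9.02 in knockout clones 7 and 21, against 7.89 and 7.97 in wild-type clones 24 and 27. Its difference of 0.88 (interval 0.40 to 1.36) did not pass (adjusted p = 0.244). THBS1 read 8.22 and 7.77 in knockouts, against 7.17 and 7.64 in wild-type clones (0.59, adjusted p = 0.517). PLOD2 averaged 9.13 ± 0.39 in knockout and 8.65 ± 0.09 in wild-type clones (SD, n = 2 each, adjusted p = 0.62). The medians of the differences were 0.04 for the set and -0.01 over all genes.

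Some genes of the set differed more between HCT116 clones of 1 group than between groups. VCAN read 9.81 and 5.40 in knockout clones 7 and 21, against 7.54 and 9.36 in wild-type clones 24 and 27. The knockout clones thus held both the highest and the lowest value, 4.41 apart, a wider range than 99.97% of genes tested had there. S100A4 read 6.43 and 9.18 in knockout clones 7 and 21, against 9.18 and 9.28 in wild-type clones, so that clone 7 alone was low. Its difference of -1.42 (adjusted p = 0.62) became -2.80 (adjusted p = 0.0187) without clone 21 and -0.05 without clone 7. Each of these fits leaves 1 knockout array, assumed to vary like the other groups. LAMA4 read 4.44 and 4.62 in knockouts, against 4.52 and 6.56 in wild-type clones, with clone 27 alone raised.

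Variation between clones was wider in the set than over all genes in every group. The median range within a group was 0.59 for the set and 0.28 for all genes in deficient H4 arrays, and 0.37 and 0.22 in corrected H4 arrays. It was 0.32 and 0.23 in deficient and 0.34 and 0.23 in corrected 42MGBA arrays, and 0.19 and 0.16 in knockout and 0.16 and 0.11 in wild-type HCT116 arrays. Of the 42 genes, 11 had a range over 1 log2 unit in deficient H4 arrays and 7 in corrected ones. POSTN spanned more than 1 unit in both H4 groups and both 42MGBA groups, and read 7.41, 5.52 and 6.31 in deficient H4 arrays, against 8.14, 5.88 and 6.02 in corrected ones. VCAN read 7.23, 5.76 and 4.93 in deficient H4 arrays, against 4.91, 4.65 and 7.32 in corrected ones, where clone 88-1 was high and its 2 companions low. These ranges are a description and were not tested.

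**Figure D4:**
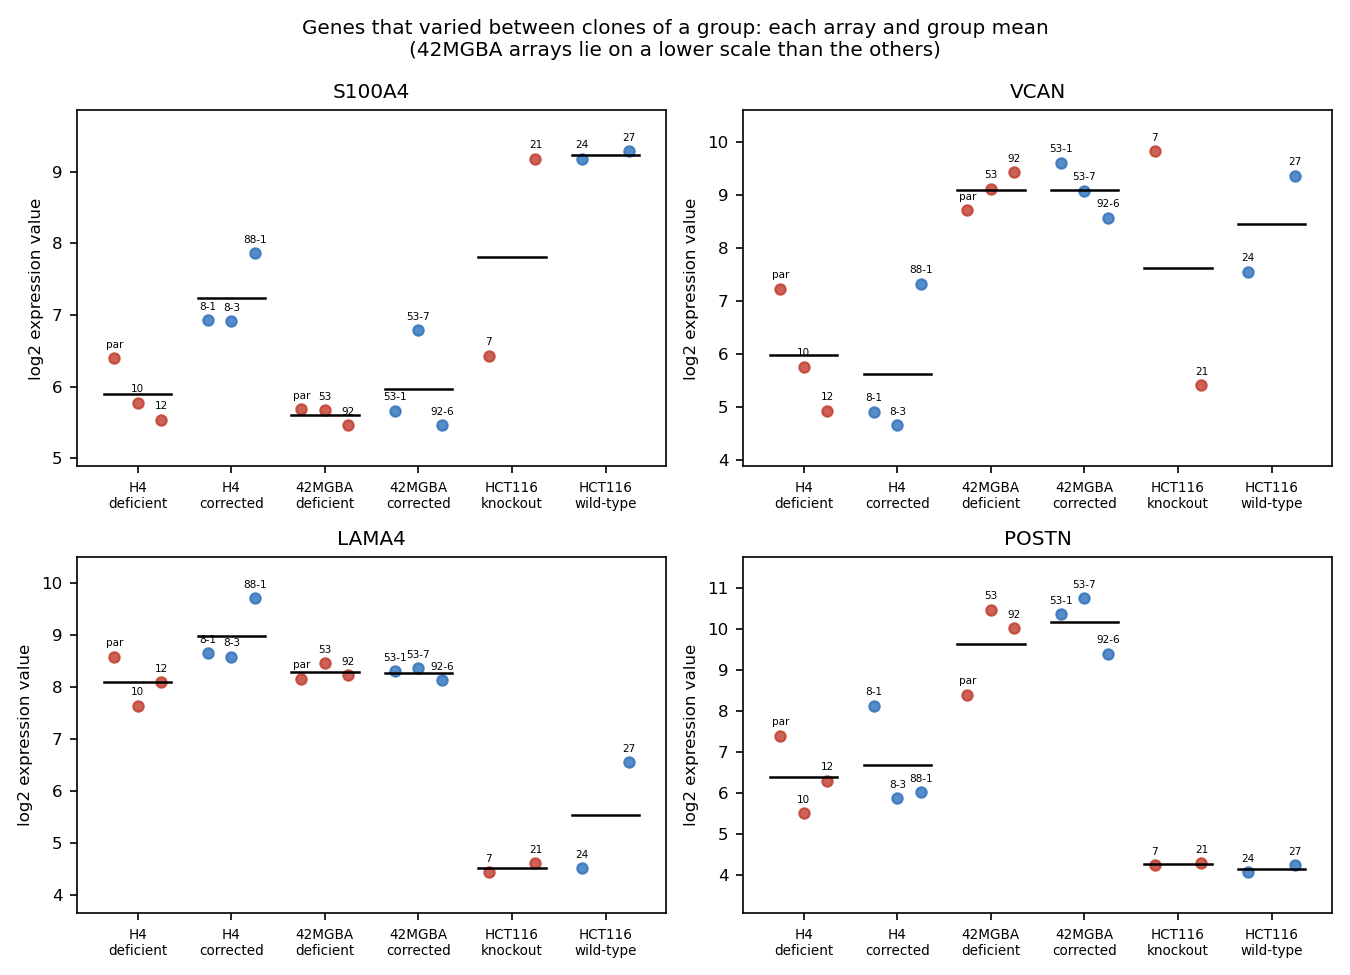
Log2 expression values of S100A4, VCAN, LAMA4 and POSTN on each array (points, labelled by clone, par being the parental line) with group means (lines), deficient or knockout in red and corrected or wild-type in blue. In HCT116, VCAN lies at 9.81 and 5.40 in the knockout clones, against 7.54 and 9.36 in the wild-type clones, and S100A4 is low in knockout clone 7 alone. The 42MGBA arrays are on a lower scale than the others.

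The difference between lines was tested as an interaction. Between H4 and 42MGBA, 1 of the 42 genes was called, against 0.254% of all genes tested. This was DCN, whose difference was -2.48 in H4 and 1.08 in 42MGBA, an interaction of -3.56 (SE 0.65, adjusted p = 0.0345) and the most negative of all 12978 genes. It passed in 7 of 12 fits without 1 array, with an adjusted p of up to 0.0979, and was lost with the arrays of the 2 lines alone (adjusted p = 0.0821). Without clone 92-6 it was -2.87. P3H2 came next at -2.08 (adjusted p = 0.0508), with values near its array's median in every 42MGBA array. FBLN5 differed in opposite directions without overlap of the groups in either line, at -0.81 in H4 and 0.59 in 42MGBA, and its interaction of -1.40 was not called (adjusted p = 0.106). Between H4 and HCT116, limma called 0 of the 42 genes, against 0.293% of all genes tested. Of the 42, 9 had an unadjusted p under 0.05, as did 1756 of all 12978 genes. P3H2 was again nearest, at -2.10 (adjusted p = 0.0745). The H4 differences enter both comparisons between lines.

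The levels of the genes were then compared between lines. Between corrected H4 and wild-type HCT116 cells, 38 of the 42 genes were called, against 52.7% of all genes tested. Of these, 34 were higher in H4 and 4 were lower, against 23.7% of all genes called higher and 29.0% called lower. The median difference was 2.46 for the set and -0.07 over all genes. LUM differed most, at 9.79 ± 0.36 in corrected H4 (SD, n = 3) and 2.80 ± 0.04 in wild-type HCT116 (SD, n = 2), a difference of 6.99 (adjusted p = 8.55e-09). TGFBI followed at 6.91, FN1 at 6.35, SNAI2 at 5.62, VIM at 5.59 and SPARC at 5.25. Lower in H4 were VCAN (-2.82, adjusted p = 0.0341), S100A4 (-2.0, adjusted p = 0.00915), FBLN1 (-0.72, adjusted p = 0.0261) and PLOD1 (-0.42, adjusted p = 0.0362). BGN, THBS2, ACTG2 and TAGLN were not called, with differences of -0.05, 0.15, 0.04 and 0.00. In HCT116, 20 of the 42 genes lay above the array median on no array, and DCN, LUM, POSTN, LOX and ACTG2 lay under the lower quartile on every array, so these differences have uncertain size.

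Percentiles within an array placed 42MGBA beside the other lines. On every H4 array 30 of the 42 genes ranked above every HCT116 array, against 21.5% of all genes tested, and FBLN1 alone ranked below. On every 42MGBA array 36 of the 42 ranked above every HCT116 array, against 35.6% of all genes, and PLOD1 alone ranked below. Between the brain tumour lines, 22 of the 42 ranked lower on every H4 array than on every 42MGBA array, against 31.5% of all genes. LAMB1, LAMC1, PLOD2, TGFB1 and TGFB2 ranked higher in H4 throughout. ACTG2 ranked between percentiles 22.9 and 24.9 in H4, 90.4 and 95.5 in 42MGBA, and 22.0 and 23.9 in HCT116. BGN ranked between percentiles 48.9 and 53.9 in H4, 94.3 and 96.4 in 42MGBA, and 52.1 and 54.2 in HCT116. Both were thus high in 42MGBA and alike in the other lines. DCN ranked between percentiles 17.9 and 24.7 in deficient and 47.1 and 65.1 in corrected H4 arrays, 75.9 and 97.1 in 42MGBA, and 14.2 and 17.9 in HCT116. FBN2 was the one gene above the array median on some arrays of H4 and none of the other lines, on 4 of 6 H4 arrays; deficient clones 10 and 12, at percentiles 22.7 and 27.7, lay near the values of 42MGBA and HCT116. THBS2 and ACTG2 were above it in 42MGBA alone.

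**Figure D5:**
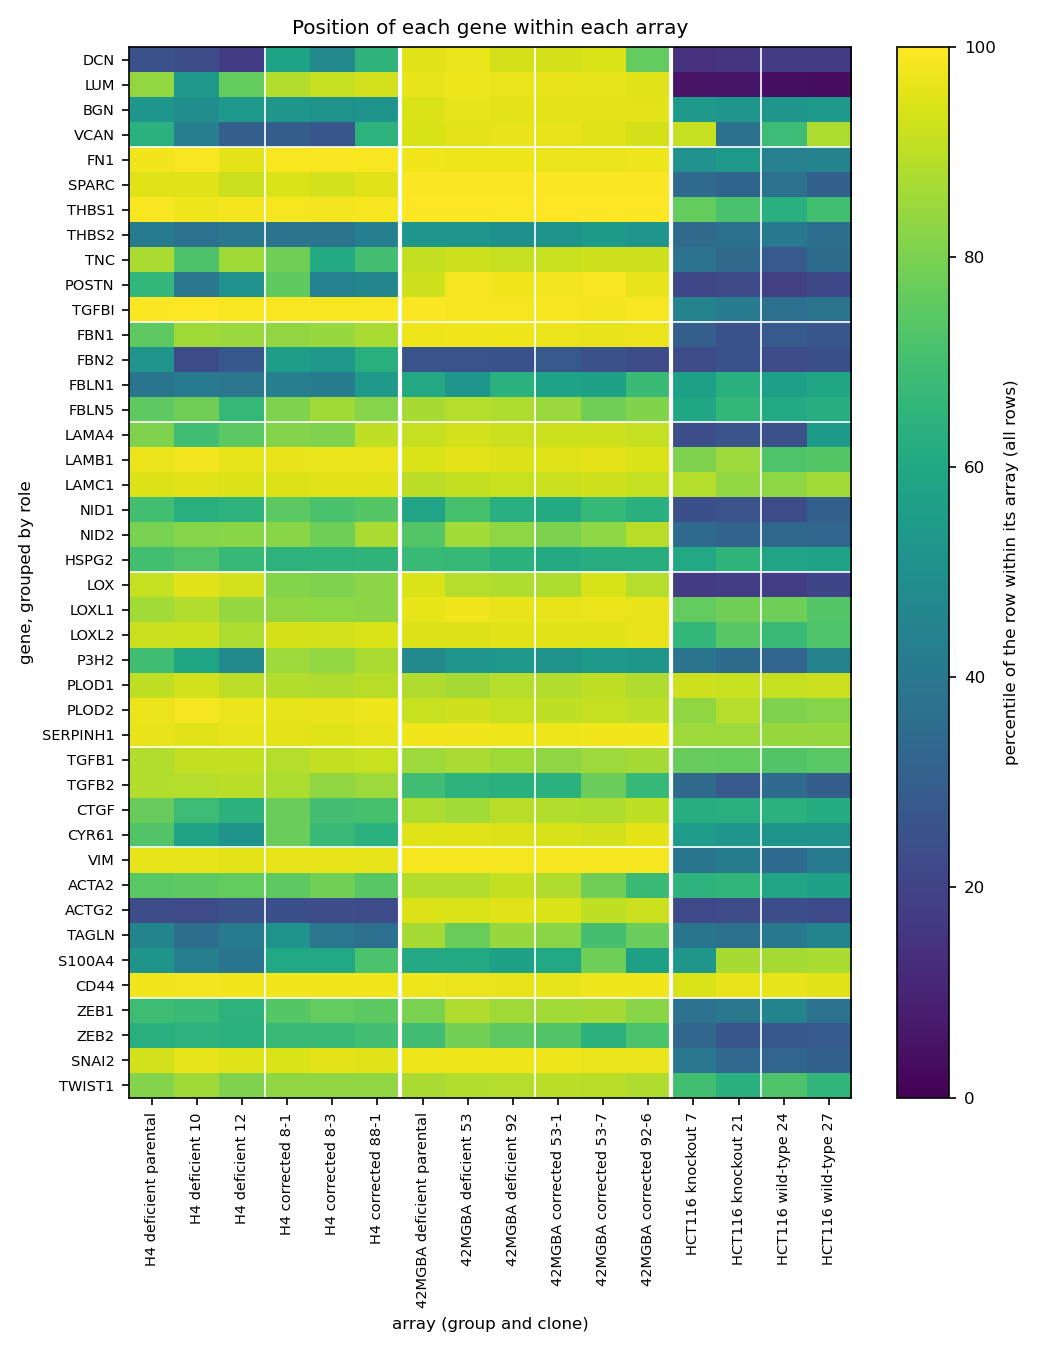
Percentile of each of the 42 genes among all rows of its array (colour, 0 to 100), with the genes grouped by role and 1 column per array. VIM, TGFBI, FN1 and SPARC lie near the top of the H4 and 42MGBA arrays and under the 55th percentile in HCT116, and ACTG2 and BGN are high in 42MGBA alone.

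Further genes of the same pathways were described from lists that were written with earlier results of these data known. Their counts stand against the 2.0% of all genes called lower and 1.30% called higher in H4. Of 29 further matrix glycoproteins tested, 4 were called lower and 0 higher in deficient H4 cells, namely LAMA1, a laminin chain, at -1.41 (adjusted p = 0.000708), MGP, the matrix calcification inhibitor, at -2.13 (adjusted p = 0.00181), IGFBP7 at -1.56 (adjusted p = 0.0026) and EFEMP1, fibulin-3, at -0.92 (adjusted p = 0.0474). Of 14 further proteoglycans, 3 were called lower and 0 higher, namely SRGN, serglycin (-2.11), SPOCK1, testican-1 (-1.47) and GPC4, a glypican (-0.66). The medians of these lists were 0.05 and -0.10, against 0.02 over all genes tested.

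Of 18 further collagen-modifying and crosslinking enzymes, 2 were called higher and 0 lower in deficient H4 cells, PLOD3, a lysyl hydroxylase, at 0.74 (adjusted p = 0.029) and P3H4, a partner of the lysyl hydroxylases, at 0.43 (adjusted p = 0.0371). Of 26 further mesenchymal and contractile genes, 3 were called lower and 0 higher, the platelet-derived growth factor receptors PDGFRA (-1.36, adjusted p = 0.0109) and PDGFRB (-0.69, adjusted p = 0.0253) and the non-muscle myosin MYH9 (-0.46, adjusted p = 0.048). None of 14 latent TGF-beta and receptor genes, 14 SMAD signalling genes or 16 YAP and serum response factor targets was called in H4. The nearest were LTBP2, a microfibril-associated protein of the latent TGF-beta binding family (-0.40, adjusted p = 0.0571), SMAD7, the inhibitory SMAD (0.29, adjusted p = 0.16), and AMOTL2, a YAP target (-0.58, adjusted p = 0.0687). In 42MGBA and HCT116 0 genes of any of these 7 lists were called by limma. The nearest in HCT116 was SMAD7, at 6.29 ± 0.13 in knockout and 5.63 ± 0.11 in wild-type clones (SD, n = 2 each, adjusted p = 0.0854). In 42MGBA the largest of the named differences was IGFBP5 at -1.07 (adjusted p = 1), with CDH2, N-cadherin, at -0.93 (adjusted p = 1).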

How the data were processed

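RNA of 16 cultures was measured, 1 Affymetrix Human Gene 1.0 ST array each. The deposited table holds 33297 rows of log2 expression values. Per the submitters' processing notes the authors used RMA in Affymetrix Expression Console; versions, settings and the probe annotation's genome build are not given in the sources used here. Their range shows the log2 scale. RMA makes the arrays of a run comparable, and the lower scale of the 42MGBA arrays means that their levels were compared with other lines only as percentiles within an array. Detection calls were not used here.

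In the platform annotation 19460 rows had 1 gene, 1754 had several and 12083 were not listed. Symbols were updated through Entrez identifiers to RefSeq (GRCh38.p14) for 19429 rows, and 31 kept the older symbol. CTGF and CYR61 were matched through RefSeq synonyms. The row with the highest mean stood for a gene, giving 18417 genes, and 12978 with a row above the array median on at least 2 arrays were tested. Groups were taken from the sample titles. The test was limma 3.58.1 (R 4.3.3; lmFit, then contrasts.fit, then eBayes) with the 6 groups in 1 fit of 16 arrays, two-sided, with Benjamini-Hochberg adjustment over all genes of a contrast and a threshold of 0.05. The shared spread understates the SE of a gene that varies more in 1 line. The fit was tested on simulated data. With 200 of 12978 genes changed in H4, it recovered 96% of the changes of 1 log2 unit and 100% of those of 2, with 12 false calls. The simulated noise was independent between arrays, with the same spread of a gene in every group. Related clones and genes more variable in 1 group were not simulated, so these shares do not give the share of real differences found.

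The members and gene lists were chosen with earlier results of these data known. All 42 genes are accounted for, those called are given on every array, those without overlap by counts and some values, and of each list at most 4 called genes or the nearest. A gene not among the 42 outside this rule was chosen after its values were seen. 42MGBA corrected clones derive from the named pre-Cre clones 53 and 92 by their titles, and a fit with parent clone as a block was run. Promoters came from a RefSeq table and were searched by script on both strands. Alternatives were other scalings, filters, rows, variance models, and samples in the fit, averaged clones, and fits without the parental lines or without single arrays.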

Additional observations from a re-analysis of the deposited data

Results flagged for a closer look

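The difference between H4 and 42MGBA in DCN was -3.56 on the log2 scale, because deficient minus corrected was negative in H4 (-2.48) and positive in 42MGBA (1.08), and the interaction passed limma's test (adjusted p = 0.0345). All 3 deficient H4 arrays lay under their lower quartile, and in 42MGBA clone 92-6 was the lowest array, at 6.63, with 8.61 and 8.80 in the other corrected clones. Groups of 2 or 3 arrays are too small for a test of single outlying arrays. The STAG2 row does not separate the 42MGBA groups, and its part in this difference was not tested.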

How the results depend on the processing

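No difference turned its direction past the threshold under any alternative. In H4, where 5 of the 42 genes and 429 genes in all were called, the counts were 3 and 165 with clones of 1 parent averaged, 2 and 34 with lines fitted separately, and 8 and 633 with parental arrays left out. Without 1 array they ran from 3 to 7 and from 169 to 631. DCN and LOX passed in every setting run. In 42MGBA the counts of 0 and 0 ran from 0 to 2 and from 0 to 9 without 1 array, both highest without clone 53-1, and the parent clone as a block changed no call. In HCT116 the 17 genes became 3 with lines fitted separately, 4 with the stricter filter and 10 with a variance trend. Without 1 array the counts there ran from 0 to 1 and from 5 to 77, the count over all genes being lowest without wild-type clone 27 and highest without knockout clone 7, and that of the 42 highest without knockout clone 21. For H4 minus HCT116 the 38 genes became 10 with the arrays of the 2 lines alone, and without 1 array the counts ran from 0 to 3 and from 10 to 140. For H4 minus 42MGBA the 1 and 33 genes became 0 and 17 with the 2 lines alone, and without 1 array ran from 0 to 4 and from 12 to 111, both highest without the parental H4 line. The causes were not tested. No paired analysis was possible for H4 and HCT116 because their groups share no clone numbers. Genes near the lower quartile, above all DCN in deficient H4 cells and DCN, LUM, POSTN, LOX and ACTG2 in HCT116, have differences of uncertain size.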
